A study of Mus musculus with 2 samples.

Results

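The miRNA hairpins Mir106b, Mir93 and Mir25 lie together inside an intron of Mcm7 and were examined in microRNA sequencing of the mouse adrenal gland. They were chosen by position, as the 3 hairpin genes within Mcm7 on chromosome 5, out of 2202 miRNA genes in the count tables. All 3 were matched by identifier and all 3 were detected, with at least 10 counts in both libraries. The study sequenced small RNA (insert size below 30 bases per the labels) from total RNA of adrenal glands of female mice, aged 2 months, of the first-generation hybrid B6CASTF1/J. There was a single group of 2 biological replicates, with no treatment named, so the comparisons are between the hairpins and between the 2 libraries. The tissue descriptions number the females differently but both samples carry 1 donor label, so the spread between the replicates may be partly technical.

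Mcm7 encodes a subunit of the MCM helicase, which unwinds DNA at replication origins, and its mRNA is typical of dividing cells. The 3 hairpins belong to a family of clusters that also holds miR-17-92 and the X-linked miR-106a-363. A miRNA recognises its targets mainly through its seed, bases 2 to 8 of the mature strand. In human cancer cells the miR-106b and miR-93 guide strands are known repressors of the cell cycle inhibitor p21, and miR-25 of the pro-apoptotic protein BIM. In the adrenal gland, dividing cells are found mainly in the outer cortex.

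The mature strands are shown here because their seeds place the 3 hairpins in a pair and a single. They are from RefSeq (GRCm38.p6), written 5′ to 3′, with the seed in capitals.
miR-106b-5p: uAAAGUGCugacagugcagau
miR-93-5p: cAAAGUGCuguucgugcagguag
miR-25-3p: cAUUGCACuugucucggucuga
miR-17-5p: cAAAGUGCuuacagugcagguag
miR-20a-5p: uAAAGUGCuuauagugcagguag
miR-92a-3p: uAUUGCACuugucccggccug
The first 3 are the strands generally described as the guides of the Mcm7 hairpins, and the other 3 are the nearest relatives that were abundant in the gland, all from miR-17-92. miR-106b-5p and miR-93-5p share the seed AAAGUGC with miR-17-5p and miR-20a-5p. miR-25-3p carries the seed AUUGCAC, which it shares with miR-92a-3p.

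Outside the seed the pair diverged in the middle of the strand. With positions counted from 1 at the 5′ end, miR-106b-5p and miR-93-5p differed at 5 of 21 bases compared (U1C, A11U, C12U, A13C and A20G), and miR-93-5p is longer by 2 bases. miR-93-5p differed from miR-17-5p, which lies on another chromosome, at 4 of 23 bases (G10U, U11A, U12C and C13A). miR-25-3p differed from miR-92a-3p at 3 of 21 bases (C1U, U14C and U18C). miR-106b-5p begins with U, and miR-93-5p and miR-25-3p begin with C.

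The opposite strands of the same hairpins have seeds unlike those of the guides and unlike each other.
miR-106b-3p: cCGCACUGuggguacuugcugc
miR-93-3p: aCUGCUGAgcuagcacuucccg
miR-25-5p: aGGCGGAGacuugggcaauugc
Counts were made per hairpin, so guide and opposite strand could not be told apart and every value below covers both.

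In mm10 the 3 hairpins lie on the minus strand, in the direction of Mcm7 (138164583 to 138172422 on chromosome 5). Mir106b (ENSMUSG00000065514.1) occupies 138165737 to 138165818, Mir93 (ENSMUSG00000065527.1) 138165523 to 138165610, and Mir25 (ENSMUSG00000065394.1) 138165321 to 138165404. All 3 fall within intron 13 of the 15-exon transcript Mcm7-201, an intron of 748 bases, of which the span from the first hairpin to the last takes 498. In the direction of transcription Mir106b comes first, 91 bases into the intron, followed after 126 bases by Mir93 and after a further 118 bases by Mir25.

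The annotation separates Mir106b from the others in 1 respect. Mir93 and Mir25 also lie inside an exon of the retained-intron transcript Mcm7-202, and no annotated Mcm7 exon holds the whole of Mir106b. Partial overlap with an exon was not examined. No miRNA gene overlaps the 3 on the other strand, and no other miRNA gene lies within Mcm7.

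The hairpins are 82 bases (Mir106b), 88 bases (Mir93) and 84 bases (Mir25) long, with a G and C content of 57.3%, 55.7% and 63.1%. In pairwise global alignment Mir106b and Mir93 were identical in 58.7% of columns, Mir106b and Mir25 in 54.7%, and Mir93 and Mir25 in 50.5%. The longest stretch that any of them has in common with another of the 2201 annotated miRNA transcripts, on either strand, is 14 bases. Reads that fitted several places are counted in a row of their own and not under a gene, and none of the 3 shares a stretch of 20 bases through which another annotated hairpin would take its reads. Other places in the genome were not searched.

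The depth was 2839732 sense gene counts in replicate 1 and 2280028 in replicate 2, and values are given as CPM, counts scaled to a library total of 1000000 such counts. A read covers a single mature miRNA of 21 to 23 bases, so CPM was not divided by length. Intervals in brackets are exact 95% binomial intervals, which cover counting error only, since no molecular identifiers are stated. Means are ± SD with n = 2. The labelled tissue was checked by marker miRNAs. The neuroendocrine list (Mir375 and 3 miR-7 genes), known from chromaffin and other endocrine cells, had 4 of 4 members detected. Its sums for replicates 1 and 2 were 42776 and 40150 CPM, most of which came from Mir375 alone (39421 and 37780 CPM). The liver marker Mir122 was detected too (3721 and 2358 CPM, in the same order), and where it came from was not tested.

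The cluster held a small and uneven part of the profile, and most of it was Mir93. Mir93 had 5824 counts in replicate 1 and 8123 in replicate 2, which is 2051 CPM (1999 to 2104) and 3563 CPM (3486 to 3641). Its level was higher in replicate 2, and it ranked 56 and 39 among all genes. The mean level was 2807 ± 1069 CPM.

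Mir106b had 2298 counts in replicate 1 and 1817 in replicate 2, or 809 CPM (776 to 843) and 797 CPM (761 to 834). These intervals largely overlap, and the mean was 803 ± 8.71 CPM. Its ranks were 87 and 95.

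Mir25 had 591 counts in replicate 1 and 575 in replicate 2, which was 208 CPM (192 to 226) and 252 CPM (232 to 274). It was the lowest of the 3 in both libraries, at ranks 154 and 139, with a mean of 230 ± 31.2 CPM. The order Mir93, Mir106b, Mir25 was the same in both libraries, and each step exceeded the SDs of the hairpins on either side of it. None of the 3 had an antisense count in either library.

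**Figure D1:**
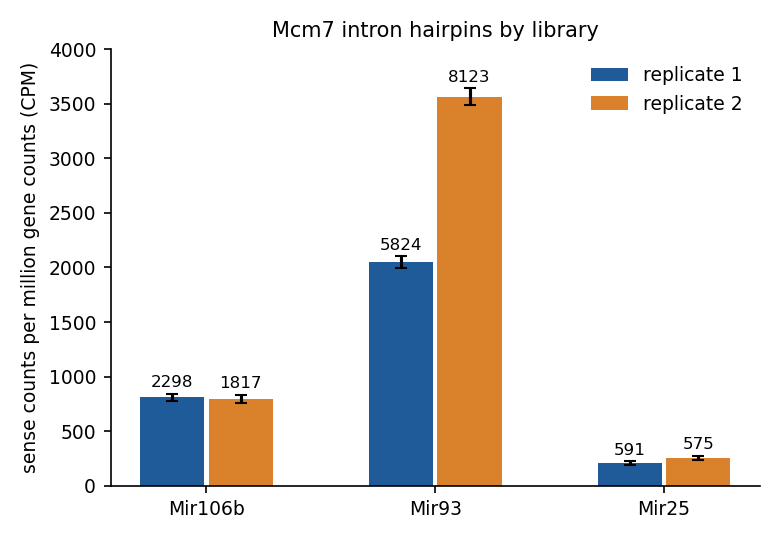
Sense CPM (vertical axis) of the 3 hairpins in replicate 1 and replicate 2, as bars with exact 95% binomial intervals and the raw count above each bar. Mir93 differs between the libraries (2051 and 3563 CPM), and Mir106b does not beyond its intervals (809 and 797 CPM).

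Together the 3 hairpins held 8713 gene counts in replicate 1 and 10515 in replicate 2, which is 0.307% (0.300 to 0.313) and 0.461% (0.452 to 0.470) of all gene counts. The mean share was 0.384% ± 0.109. Of the cluster's counts, Mir93 made up 66.8% (65.8 to 67.8) in replicate 1 and 77.3% (76.4 to 78.0) in replicate 2. Mir106b made up 26.4% (25.5 to 27.3) and 17.3% (16.6 to 18.0), and Mir25 6.78% (6.26 to 7.33) and 5.47% (5.04 to 5.92). The share of Mir93 was larger in replicate 2 and the shares of both neighbours were smaller there.

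**Figure D2:**
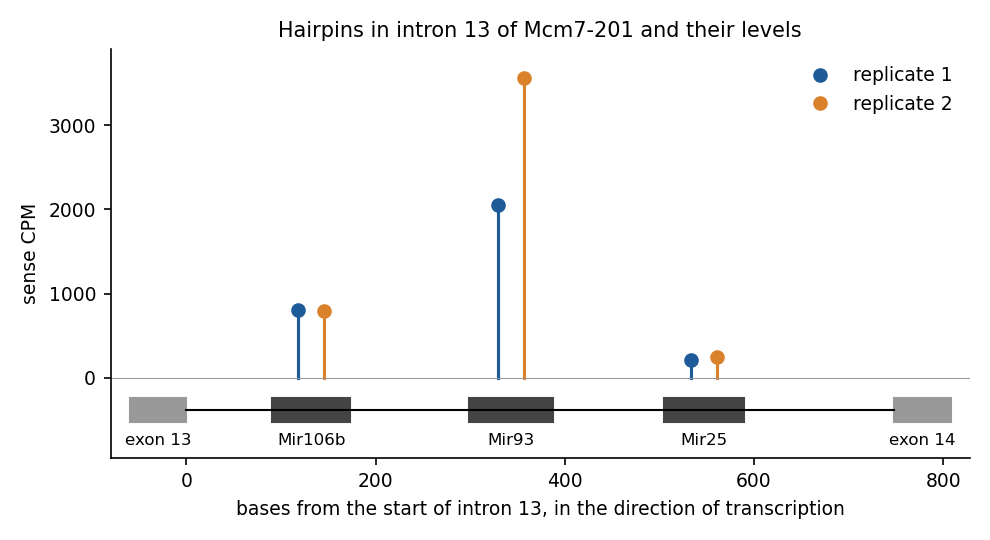
The 3 hairpins (dark boxes) in intron 13 of Mcm7-201, with the horizontal axis in bases from the intron's start in the direction of transcription, and stems giving the sense CPM of each hairpin in replicate 1 and replicate 2. Levels do not follow the order along the transcript: the middle hairpin, Mir93, is the highest and the last, Mir25, the lowest.

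Ratios between the hairpins within a library do not depend on how the libraries are scaled. Mir93 exceeded Mir106b 2.53-fold (2.41 to 2.66) in replicate 1 and 4.47-fold (4.25 to 4.71) in replicate 2. Mir93 exceeded Mir25 9.85-fold (9.05 to 10.7) in replicate 1 and 14.1-fold (13.0 to 15.4) in replicate 2. Mir25 stood at 0.257 of Mir106b (0.235 to 0.282) in replicate 1 and 0.316 (0.288 to 0.348) in replicate 2. All 6 ratios differed from 1 (exact binomial test against equal counts, two-sided), with a largest Benjamini-Hochberg adjusted p of 4.19e-149 over the 6. Ligation and amplification efficiency differ between miRNA sequences, so these are ratios of assigned reads and not of molecules.

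The ratios themselves differed between the libraries. By two-sided Fisher's exact test on the counts of a pair in the 2 libraries, the ratio of Mir93 to Mir106b in replicate 1 was 0.567 of that in replicate 2 (0.529 to 0.608, adjusted p = 1.38e-56 over 3 pairs). The ratio of Mir93 to Mir25 in replicate 1 was 0.698 of that in replicate 2 (0.619 to 0.786, adjusted p = 6.47e-09). The ratio of Mir25 to Mir106b in replicate 1 was 0.813 of that in replicate 2 (0.713 to 0.926, adjusted p = 0.00193). Of the 3 pairs, the one with a shared seed, Mir93 and Mir106b, had the ratio that differed most. The test sets a single library against a single library and covers counting error only, so it does not measure the spread between animals. Between these replicates the biological coefficient of variation over all genes, estimated with edgeR from the common dispersion, was 44.8%.

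Each hairpin was then compared between the libraries in a test over all 369 genes whose counts averaged 10 or more, the exact binomial test (two-sided) with Benjamini-Hochberg adjustment. A gene was called where the adjusted p was under 0.05 and the libraries differed 2-fold or more, which 18.7% of the genes tested met. None of the 3 hairpins was called. Mir93 had a ratio of replicate 1 over replicate 2 of 0.576 (0.557 to 0.595), a log2 ratio of -0.80 with an adjusted p of 6.75e-230, which missed the 2-fold rule. The log2 ratio of Mir25 was -0.28 (adjusted p = 0.00217) and that of Mir106b 0.02 (adjusted p = 0.703).

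An adjusted p under 0.05 alone was met by 62.6% of all genes tested, and by Mir93 and Mir25 among the 3 hairpins. For Mir25 this depended on scaling, since the adjusted p was 0.0526 with edgeR's TMM factors. Mir106b was on the other side of the threshold with the same factors (log2 ratio 0.12, adjusted p = 0.0191). Of the 369 genes, 97 (26.3%) differed by more than Mir93 in either direction, 241 (65.3%) by more than Mir25 and 357 (96.7%) by more than Mir106b. The median size of the log2 ratio was 0.28 over the 3 hairpins and 0.45 over all genes tested. With scaling to the library total, Mir106b was thus among the genes that differed least between the libraries. Mir93 was in the upper part without standing apart. These places among the genes were not recomputed with TMM, where the log2 ratio of Mir106b was 0.12.

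Markers of other cell types differed between the same libraries by unlike amounts. The erythroid list (3 of 3 members detected) summed to 643 CPM in replicate 1 and 14488 CPM in replicate 2. Mir451a (469 and 13557 CPM) and Mir144 (107 and 873 CPM) carried this difference, and Mir486 had 65.9 and 58.3 CPM. The skeletal and heart muscle list (0 of 9 detected in both libraries, 3 at 0 in both) summed to 953 CPM in replicate 1 and 4.39 CPM in replicate 2. The white blood cell list (4 of 4 detected) summed to 1331 CPM in replicate 1 and 1051 CPM in replicate 2. Within it Mir223 (133 and 17.5 CPM) and Mir150 (660 and 467 CPM) were lower in replicate 2. Mir142 (210 and 213 CPM) and Mir155 (329 and 354 CPM) were slightly higher there. In replicates 1 and 2 the endothelial marker Mir126a had 43203 and 59463 CPM. The smooth muscle and fibroblast list (4 of 5 detected) summed to 23167 and 25516 CPM. The steroidogenic list (Mir21a, Mir34a, Mir132, Mir212 and Mir202, 5 of 5 detected), which is not exclusive to the cortex, summed to 36810 CPM in replicate 1 and 16975 CPM in replicate 2. Mir21a made up most of that sum (33612 and 13012 CPM), and Mir34a differed the other way (1739 and 3345 CPM). Their part in the difference of Mir93 was not tested, and in bulk tissue more cells of a type and more miRNA per cell cannot be told apart. Without the muscle and erythroid markers in the totals the log2 ratio of Mir93 was -0.82.

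**Figure D3:**
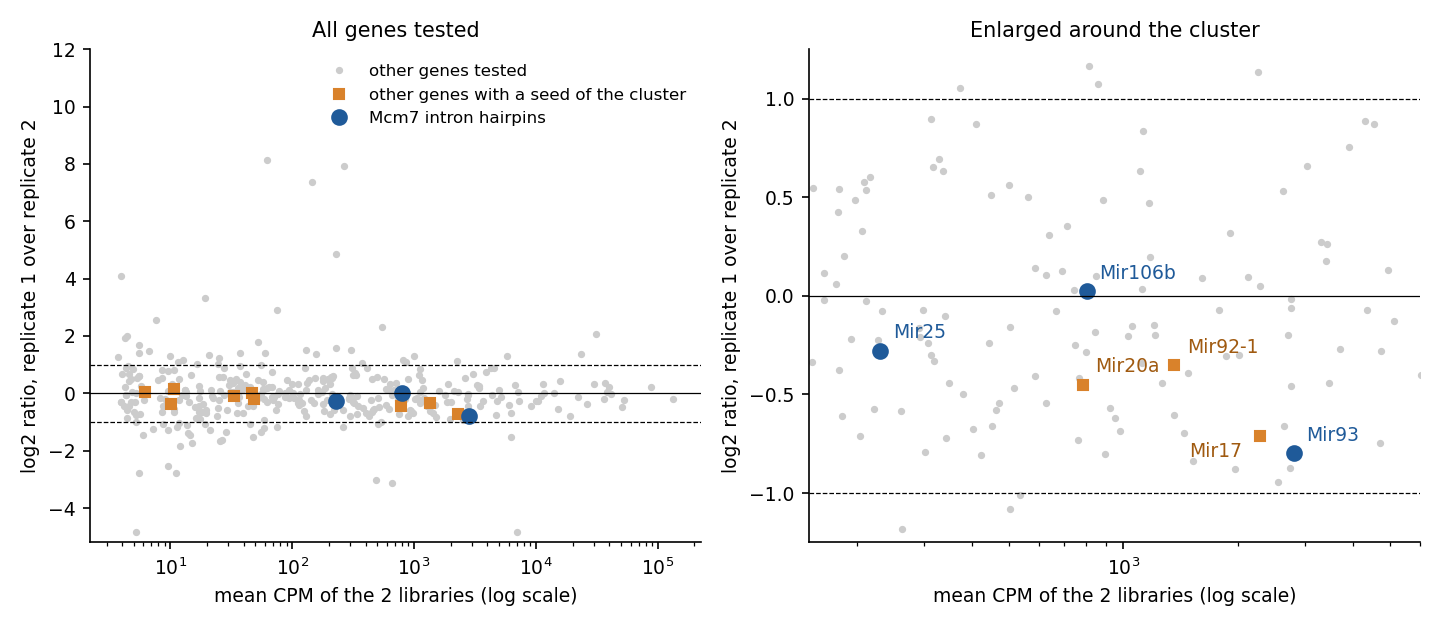
Log2 ratio of replicate 1 over replicate 2 (vertical axis) against mean CPM (horizontal log axis) for the genes tested, all on the left and enlarged on the right, with dashed lines at 2-fold. The 3 hairpins and the other genes that carry their seeds lie within the dashed lines, and Mir93 lies next to Mir17. The 1 gene with no count in a library is not drawn.

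The next comparison set the hairpins against every other annotated gene with the same seed. RefSeq mature sequences were matched by symbol for 1018 of the 2202 genes, and 11 genes outside Mcm7 carried a seed of the cluster. Of these, 9 entered the comparison of the libraries and 0 were called (18.7% of all genes). A negative log2 ratio was found in 6 of the 9, but also in most of all genes tested, whose median was negative. By an adjusted p under 0.05 alone, 3 of the 9 passed, all lower in replicate 1 (35.8% of all genes), namely Mir17, Mir20a and Mir92-1. The median log2 ratio was -0.21 over the 9 and -0.07 over all genes tested.

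Among the genes with the seed AAAGUGC, Mir93 and Mir106b held the larger part of the assigned reads. Mir17, the first hairpin of miR-17-92, had 1731 CPM in replicate 1 and 2834 CPM in replicate 2. Its log2 ratio of -0.71 was close to the -0.80 of Mir93 (adjusted p = 2.25e-150 and 6.75e-230 by the binomial test). Mir20a, from the same cluster, had 662 and 904 CPM (log2 ratio -0.45). On the X chromosome Mir20b had 32 and 23 counts and Mir106a 25 and 26 counts, and Mir6383 had 0 counts in both libraries, which allows up to 1.06 CPM in replicate 1 and 1.32 CPM in replicate 2. Of the counts of genes with this seed, the 2 Mcm7 hairpins held 54.2% (53.4 to 55.0) in replicate 1. In replicate 2 they held 53.7% (53.0 to 54.4), and the mean was 54.0% ± 0.388.

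The share of the pair in its seed family was thus nearly the same in both libraries while its make-up was not. Mir93 stood at 1.18 of Mir17 (1.14 to 1.23) in replicate 1 and 1.26 (1.22 to 1.30) in replicate 2. Mir106b stood at 1.22 of Mir20a (1.15 to 1.30) in replicate 1 and 0.881 (0.827 to 0.939) in replicate 2, so their order was exchanged. Mir93 and Mir17, which are on different chromosomes, kept a closer ratio across the libraries than Mir93 and Mir106b, which are 126 bases apart. The difference between these ratios was not tested.

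For the seed AUUGCAC, Mir25 was a minor part. Of the counts of genes with this seed, it held 13.6% (12.5 to 14.6) in replicate 1 and 13.2% (12.2 to 14.2) in replicate 2. Mir92-1, the last hairpin of miR-17-92, had 1197 CPM in replicate 1 and 1526 CPM in replicate 2. Mir25 stood at 0.174 of Mir92-1 (0.159 to 0.190) in replicate 1 and 0.165 (0.151 to 0.181) in replicate 2. These intervals overlap, and whether the ratio of Mir25 to Mir92-1 differed between the libraries was not tested.

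The other genes with the miR-25 seed were low. In replicates 1 and 2, Mir32 had 45.1 and 52.2 CPM, Mir92-2 47.2 and 46.5 CPM, Mir92b 32.0 and 34.2 CPM and Mir363 6.34 and 6.14 CPM, and Mir367 had 0 counts in both libraries. Mir92-1 and Mir92-2 encode the same mature miR-92a-3p, and reads of it that fit both genes were not assigned. The share of Mir25 in its seed family and its ratio to Mir92-1 therefore hold for assigned reads only.

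**Figure D4:**
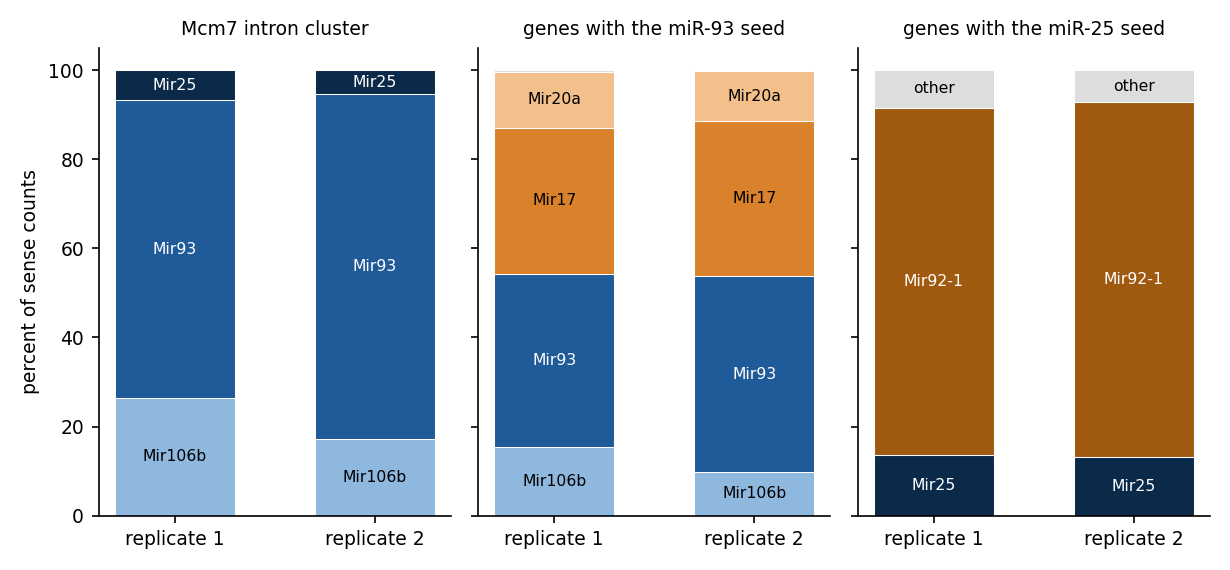
Percent of sense counts (vertical axis) in replicate 1 and replicate 2 held by each hairpin of the Mcm7 cluster (left), by the genes with the seed of miR-93 (middle) and by the genes with the seed of miR-25 (right). Mir93 takes 66.8% and 77.3% of the cluster, while Mir93 and Mir106b together hold 54.2% and 53.7% of the counts of genes with their seed.

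Set against the paralogous clusters as a whole, the Mcm7 hairpins were close to miR-17-92 and far above miR-106a-363. The Mcm7 sum was 0.826 of the miR-17-92 sum (0.802 to 0.849) in replicate 1 and 0.860 (0.837 to 0.882) in replicate 2. It exceeded the miR-106a-363 sum 40.9-fold (35.7 to 47.1) in replicate 1 and 62.2-fold (53.4 to 72.9) in replicate 2. Each paralogous cluster holds a gene for miR-92a-3p (Mir92-1 and Mir92-2), and reads that fit both were not assigned. Both paralogous sums may thus be too low, and these ratios hold for assigned reads only. The log2 ratio of replicate 1 over replicate 2 was -0.59 for the Mcm7 sum, -0.53 for miR-17-92 and 0.02 for miR-106a-363. The Mcm7 cluster and miR-17-92 thus differed between the libraries in the same direction and by a like amount.

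In miR-17-92 and miR-106a-363, 4 of 6 members each were detected, against 3 of 3 in Mcm7. Mir18 of miR-17-92 had 357 counts in replicate 1 and 227 in replicate 2, and, unlike its neighbours, a positive log2 ratio (0.34, adjusted p = 0.0111), so miR-17-92 also held members on either side of 0. Mir18b of the X-linked cluster had 0 counts in both libraries. Mir19a had 0 and 2 assigned counts, and Mir19b-1 and Mir19b-2 had 4 and 0 each. Reads that fit both Mir19b genes would be counted under neither, so these values do not show how much miR-19b was present. The miR-19 hairpins have no counterpart in the Mcm7 cluster. The assigned counts of miR-17-92 are in effect those of Mir17, Mir18, Mir20a and Mir92-1.

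Unequal members are common among neighbouring hairpins in these libraries. Of all groups of same-strand hairpins with gaps of at most 10 kb in which every hairpin entered the comparison, there were 37, among them 9 with 3 or more hairpins. Within the Mcm7 cluster the log2 mean CPM spanned 3.61, against a median of 3.84 over the 37 groups and 5.34 over the 9. The log2 ratio of replicate 1 over replicate 2 spanned 0.82 within the Mcm7 cluster, against medians of 0.65 and 1.16. In all, 15 groups were more spread in log2 ratio and 19 in level, and 19 groups had members on both sides of 0. A range grows with the number of members, and of the 9 groups with 3 or more hairpins, 6 were more spread than the Mcm7 cluster in log2 ratio and 6 in level.

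**Figure D5:**
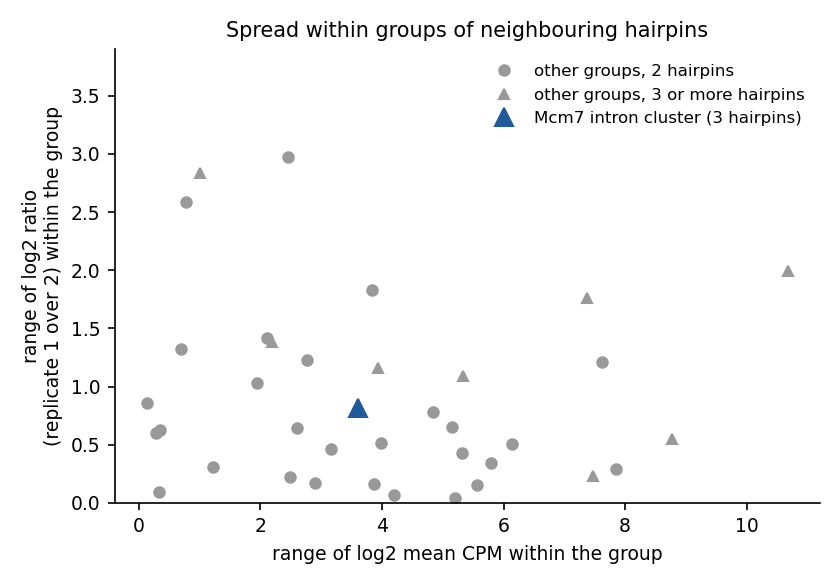
Range of the log2 ratio of replicate 1 over replicate 2 (vertical axis) against the range of log2 mean CPM (horizontal axis) within each of 37 groups of neighbouring hairpins, with circles for 2 hairpins and triangles for 3 or more. The Mcm7 intron cluster, at 3.61 and 0.82, lies among the other groups.

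The genes nearest to each hairpin in level were found over the 2 libraries as the smallest distance in log2(CPM + 1), a likeness that rests on 2 samples. Nearest to Mir93 were Mir107 (at 1940 CPM in replicate 1, 3549 CPM in replicate 2, distance 0.08), Mir324 (distance 0.14) and Mir335 (0.24). Nearest to Mir106b were Mir672 (880 and 819 CPM, distance 0.13), Mir540 (0.16) and Mir193a (0.17). Nearest to Mir25 were Mir16-2 (209.5 and 244 CPM, distance 0.05), Mir300 (0.14) and Mir210 (0.23). No hairpin of the cluster was among the nearest genes of another. Their unequal levels already fix this, because the distance follows level. It does not show how alike they were across the libraries. By mean CPM, Mir93 ranked 47 between Mir122 and Mir615, Mir106b 92 between Mir195a and Mir182, and Mir25 145 between Mir300 and Mir26a-2.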

How the data were processed

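Per the labels, the tables hold microRNA sequencing of total RNA from 2 female adrenal samples, mapped to mm10 with the GENCODE M21 annotation. The deposited values are read counts per miRNA gene, not normalized; the aligner and counter are not given in the sources used here. Of the single-strand columns, the 1 with the larger total was taken as sense. Rows that name no gene (unmapped, aligned to several places, outside genes, ambiguous) held 69.4% and 73.7% of the reads in replicates 1 and 2 and were left out. Counts were scaled to a total of 1000000 (CPM), and a count of 0 allows up to 3 counts. All 2202 genes were matched by identifier. Exact binomial and Fisher tests used scipy 1.17.1, and TMM and median-of-ratios factors edgeR 4.0.16 and DESeq2 1.42.0. With 1 group, no edgeR test between conditions was possible. Tests were checked on simulated counts with counting error only, so the check does not cover variation between samples. The genes named are the 3 hairpins, genes with their seeds, members of the paralogous clusters, the 3 genes nearest in level to each hairpin and those next in rank. Members and lists were chosen with earlier results of these data known.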

Additional observations from a re-analysis of the deposited data

How the results depend on the processing

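Of 80 values recomputed under other settings, 71 counted as unchanged, by a rule set for each kind of value. Log2 ratios of the hairpins had to keep their direction and their side of the rule for a call (adjusted p under 0.05 and at least 2-fold). Ratios between hairpins had to keep their direction and, where tested, their side of a threshold on p alone. Levels, shares and ratios of cluster sums had to move by less than the SD. The log2 ratio of the cluster sum had to stay within its binomial interval, and numbers of genes called had to stay of similar size. Part of the 71 was fixed in advance. With 2 libraries, leaving 1 out always moves a mean by less than the SD. Ratios within a library rest on the same counts when unstranded counts are used. A filter on low counts cannot change a log2 ratio. The tally is therefore not a measure of robustness. None of the 3 hairpins was called under any setting. By adjusted p alone, Mir25 (0.0526) and Mir106b (0.0191, log2 ratio 0.12) crossed 0.05 with TMM. The log2 ratio of Mir93 lay between -0.85 and -0.70. That of Mir106b changed sign with unstranded counts, to -0.034 (adjusted p = 0.556); the total there is smaller because reads in genes that overlap on opposite strands are dropped, and its own counts are the same. For the same reason the mean level was 933 CPM for Mir106b and 268 CPM for Mir25. The log2 ratio of the cluster sum was -0.49 with TMM, -0.51 with median-of-ratios and -0.64 with unstranded counts. At a mean count of at least 100, fewer genes were tested and 33 were called, 21 higher and 12 lower in replicate 1. Leaving out a replicate gives the value of the other library, 0.307% or 0.461% for the cluster's share. No paired analysis was possible because there is 1 group. Counting error limits the X-linked relatives Mir363, Mir106a and Mir20b, at 14 to 32 counts a library. With 2 samples no test over samples could pass, and how many reads of miR-92a-3p fitted several places is unknown.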
